A study of Rattus norvegicus with 24 samples.

Results

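Colonic tumours of rats that had drunk dextran sodium sulfate (DSS) were compared with normal distal colon of the same animals. The comparison holds 10 of the 20 rat-and-tissue samples of the study and 12 of its 24 arrays: normal colon and tumour of 5 rats, numbered 1, 5, 6, 7 and 9. They were chosen by their titles and paired by rat number. All were male (ACIxF344)F1-Pirc rats with the genotype Apc-Pirc/+. Such rats inherit 1 mutant and 1 normal copy of Apc, a tumour suppressor, and form colonic tumours. The 5 rats drank 4% DSS of molecular weight 500000 on days 40 to 47 and again on days 54 to 61, and tissue was taken at day 97, 36 days after the last DSS. The normal colon therefore shares the Apc mutation, the DSS and the age with the tumours. The 5 untreated rats set beside them (numbers 2, 3, 4, 8 and 10) were of the same cross, genotype, sex and age and had no DSS. Each sample was labelled with Cy3 and read against 1 pool of wild-type rat colon RNA in Cy5, with no dye swap, so a level is log2 of the sample over that pool. The tissue was measured in bulk, and in bulk tissue fewer cells of a type and less RNA per cell cannot be told apart.

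Apc is part of the complex that marks beta-catenin for destruction. When it is lost, beta-catenin enters the nucleus, binds TCF factors and raises Wnt target genes, which in the intestine normally mark the proliferating base of the crypt. Colonocytes that leave the crypt base take up ions, water and short-chain fatty acids, and goblet cells secrete mucus. DSS injures this lining and causes colitis, and repeated rounds speed tumour formation in rodents that carry an Apc mutation.

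The share of probes well above background was 47.6% to 65% on 11 of the 12 arrays and 86.9% on that of the rat 9 tumour. Slides were grouped here into 2 lots by the first characters of their barcodes, and the sample labels name no lot. Rats 1, 5 and 6 were on slides of lot 1, rats 1 and 5 on scan day 1 and rat 6 on scan day 2. Rats 7 and 9 were on slides of lot 2, all of scan day 3, so lot 2 and its scan day cannot be told apart. Rats 1 and 5 stood close together in their normal colon: the SD of their difference over probes was 0.152, against 0.158 to 0.363 between repeat arrays of 1 sample and 0.34 to 0.474 between rat 1 and the other rats, which were on other scan days. The labels give them as 2 animals and they were counted as 2, and results are also given with the pair averaged to 1 sample. Epithelial markers were near the level of the pool in both tissues. Epcam, an epithelial adhesion protein, differed by -0.05 ± 0.15 (adjusted p = 0.896), and Cdh1, E-cadherin, by -0.08 ± 0.14 (adjusted p = 0.817).

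Of 26454 features, 2007 (7.59%) differed between tumour and normal colon at an adjusted p under 0.05 (limma, Benjamini-Hochberg over all features). Tumours were higher for 989 (3.74%) and lower for 1018 (3.85%). The falls were the deeper: 480 features fell and 228 rose by more than 2-fold. Of the 2007, 1878 moved the same way in all 5 rats, and the 5 normal and 5 tumour values did not overlap for 1408; over all features 2012 (7.61%) did not overlap. With rat as a block, 3290 features passed, 1659 higher and 1631 lower, and 1907 of the 2007 were among them. List counts with rat as a block are to be read against these, not against 3.74% and 3.85%. With the normal colon of rats 1 and 5 as 1 sample, 1380 passed, 1370 of them among the 2007. Leaving out rat 1 gave 1189, rat 5 gave 1096 and rat 9 gave 1211. The split between directions moved with the scaling: median centring gave 388 higher and 261 lower and shifted the median of all features from 0.02 to 0.25, and scaling between arrays gave 225 higher and 396 lower. Of 97 named genes that passed, 58 kept their call under median centring and 37 with scaling between arrays; the calls that median centring ended are named with their genes.

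The largest rise among named genes was that of Armh4, a membrane protein of little known function. In rats 1, 5, 6, 7 and 9, the order used throughout, its level was 0.41, 0.64, 1.30, 1.25 and 0.40 in normal colon and 4.77, 4.49, 4.57, 5.07 and 4.47 in tumours. The difference was 3.88 ± 0.42, 14.7-fold (adjusted p = 1.44e-05), and the lowest tumour lay far above the highest normal colon. For differences, ± and SE give the moderated standard error of the fit. Its spread is shared by all 4 groups and 20 samples, untreated rats included, so it is not the scatter of the 5 DSS rats. Tm4sf1, a surface protein of the tetraspanin-like L6 family, was at -0.58, -0.47, 1.96, 1.03 and -1.14 in normal colon and at 3.28, 3.61, 3.83, 3.22 and 2.93 in tumours. It rose 9.28-fold (adjusted p = 0.0003) with no overlap, although normal colon itself spread widely between rats.

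The other large rises span several kinds of gene. Bex1, a brain-expressed adaptor protein, rose by 2.69 ± 0.52. Tmem132c, a membrane protein, rose by 2.60 ± 0.41 from normal levels within 0.21 to 0.66. Nnat, the imprinted gene for neuronatin, rose by 2.54 ± 0.42: its 3 normal values in lot 1 (-1.58, -1.90 and -0.89) lay above the 2 in lot 2 (-3.19 and -3.28), and the tumours kept that order with 1.15, 0.73 and 0.51 against -0.38 and -0.18. Prss23, a secreted serine protease, rose by 2.52 ± 0.38, and its second probe rose by 1.49. Myh10, a nonmuscle myosin heavy chain, rose by 2.46 ± 0.32, but a dimmer probe differed by only 0.12. Apobec2, a member of the cytidine deaminase family, rose by 2.30 ± 0.28. Fam89a rose by 2.26 ± 0.20, with normal levels of 0.01 to 0.97 and tumour levels of 2.37 to 2.96. Cited1, a transcriptional coactivator, rose by 2.25 ± 0.39. Adjusted p for these 8 genes ran from 2.67e-06 to 0.00297. Passing the threshold and rising in 5 of 5 rats were conditions of their choice. Normal and tumour values did not overlap for any of the 8.

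**Figure D1:**
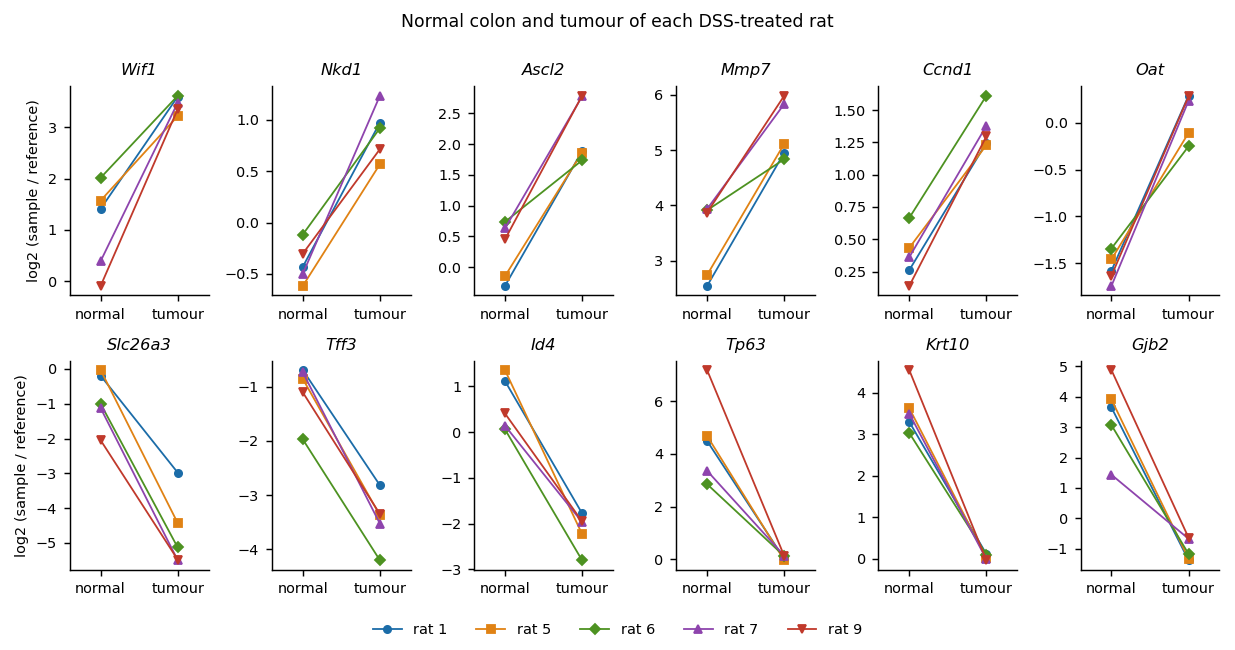
Log2 of sample over reference pool (vertical axes, 1 scale per gene) in normal colon and tumour of the 5 DSS-treated rats for 12 genes, with a line joining the 2 tissues of 1 rat. For the 6 genes in the upper row every line rises and for the 6 in the lower row every line falls; Tp63 falls from 7.18 to 0.13 in rat 9 and from 2.85 to 0.12 in rat 6.

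Wnt feedback and target genes rose together: of 27 measured, 15 rose and 1 (Tiam1) fell, against 3.74% and 3.85% of all features, and the list's median difference was 0.606. Their mean level was 0.139 to 0.432 in the 5 normal samples and 0.855 to 1.11 in the 5 tumours. The secreted inhibitors and feedback regulators among them were Wif1, Notum, Dkk3, Nkd1, Axin2 and Bambi. Wif1, which binds Wnt ligands outside the cell, was at 1.41, 1.57, 2.01, 0.39 and -0.09 in normal colon and at 3.59, 3.21, 3.61, 3.48 and 3.35 in tumours. It rose 5.24-fold (adjusted p = 0.000215), and tumours lay within a narrow band while normal colon of lot 2 sat below that of lot 1.

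Nkd1, an inhibitor that binds Dishevelled, was at -0.43, -0.62, -0.12, -0.50 and -0.30 in normal colon and at 0.97, 0.57, 0.92, 1.23 and 0.71 in tumours, a rise of 1.27 ± 0.16 (2.42-fold; adjusted p = 6.94e-05). Axin2, a scaffold of the beta-catenin destruction complex, was at 0.80, 0.49, 0.58, 0.10 and 0.23 in normal colon and at 0.89, 1.58, 1.99, 1.74 and 1.04 in tumours. It rose in 5 of 5 rats (1.01 ± 0.24; adjusted p = 0.0134), but by little in rat 1, where tumour and normal colon were nearly level. Without rat 5, 6 or 7 its adjusted p was 0.0647, 0.0534 or 0.078. Bambi, a decoy receptor for BMP and TGF-beta signals, rose by 1.21 ± 0.27 (adjusted p = 0.00957, and 0.0559 without rat 7). Under median centring Axin2 (adjusted p = 0.0632) and Bambi (0.0691) did not pass.

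The target genes Ascl2, Myc, Ccnd1, Cd44 and Mmp7 rose in every rat. Ascl2, a transcription factor of intestinal stem cells, was at -0.30, -0.15, 0.74, 0.63 and 0.45 in normal colon and at 1.88, 1.86, 1.74, 2.77 and 2.78 in tumours, 3.82-fold higher (adjusted p = 0.000464). Mmp7, the metalloprotease matrilysin, was at 2.54, 2.74, 3.91, 3.93 and 3.87 in normal colon and at 4.95, 5.12, 4.84, 5.84 and 5.99 in tumours, 3.85-fold higher (adjusted p = 0.00105). Its level in normal colon was thus already well above the pool in every DSS rat, and highest in rats 6, 7 and 9.

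Ccnd1, cyclin D1, stood at 0.14 to 0.67 in normal colon and at 1.23 to 1.61 in tumours, a rise of 0.98 ± 0.12 (adjusted p = 5.82e-05). Myc, a growth-promoting transcription factor, rose by 1.34 ± 0.29 (adjusted p = 0.0069), from 0.12 to 1.46 in normal colon to 1.69 to 2.49 in tumours. Median centring gave Ccnd1 a difference of 1.65 and Myc 1.99, and neither passed (adjusted p = 0.125 and 0.113). Cd44, a hyaluronan receptor, was at 0.45, 0.57, 1.07, 0.47 and 1.28 in normal colon and at 2.31, 2.09, 2.58, 2.55 and 2.09 in tumours, 2.94-fold higher (adjusted p = 0.000663). A second, dimmer Cd44 probe differed by 0.39. Apc itself was lower in tumour in all 5 rats (-0.35 ± 0.13) and did not pass (adjusted p = 0.121); with rat as a block its adjusted p was 0.0382.

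The promoters of these genes were searched for the TCF letters CTTTGAT or CTTTGAA on both strands, over 250 bases before to 50 bases after the RefSeq start (assembly GRCr8). Of 19 Wnt list members with a promoter in the table, 6 (31.6%) held a match: Axin2, Nkd1, Tcf7, Sp5, Cd44 and Mmp7. Matches were in 8.64% of all 27457 promoters and in 6.19% of the 11133 promoters of genes tested. They were in 5.99% of the 568 promoters of genes higher in tumours, and in 7.23% of the 553 of genes lower in tumours. The squamous list, which fell, held them in 3 of 14 promoters (21.4%). The windows below show 4 of the members that rose, 5′ to 3′ on the gene's strand, with the match in capitals. They lie at chr10:94398623-94398689 (plus strand) for Axin2, chr19:34722961-34723007 (minus) for Nkd1, chr8:13133010-13133042 (plus) for Mmp7 and chr3:109699441-109699487 (minus) for Cd44. The match shown lies 132, 141, 13 and 43 bases before the start in that order, and in Mmp7 and Cd44 it is on the opposite strand. The Axin2 promoter also holds a match further from the start, outside the window shown. A match is a description of these letters and not evidence of binding.
Axin2: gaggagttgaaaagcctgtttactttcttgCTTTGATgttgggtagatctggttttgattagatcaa
Nkd1: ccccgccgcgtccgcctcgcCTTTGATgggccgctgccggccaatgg
Mmp7: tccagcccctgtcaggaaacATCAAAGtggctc
Cd44: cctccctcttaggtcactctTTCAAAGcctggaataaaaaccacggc

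Stem cell markers moved in both directions: of 15 measured, 4 rose and 1 fell. Ascl2 led the rises, and Cdca7, a Myc-responsive gene of dividing progenitors, rose by 1.13 ± 0.21 (adjusted p = 0.0023). Prom1, the membrane protein CD133, was at -0.64, -0.60, -0.70, -0.96 and -1.09 in normal colon and at -2.31, -2.26, -2.72, -2.50 and -2.60 in tumours, a difference of -1.68 ± 0.30 (adjusted p = 0.00152). The groups did not overlap, but under median centring the difference was -0.91 and did not pass (adjusted p = 0.341). Lgr5, the receptor that marks crypt-base stem cells, was higher in tumour in 5 of 5 rats (0.50 ± 0.20) and did not pass (adjusted p = 0.149). Olfm4, another crypt-base marker, differed by 0.30 ± 0.50 (adjusted p = 0.81).

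In the BMP and hedgehog list, 4 of 23 rose and 2 fell. Id4 and Id3, both of which encode inhibitors of helix-loop-helix factors, moved apart. Id4 was at 1.12, 1.35, 0.06, 0.14 and 0.41 in normal colon and at -1.77, -2.23, -2.80, -1.97 and -1.95 in tumours, 6.77-fold lower (adjusted p = 7.07e-06). Id3 showed a rise of 1.0 ± 0.20 (adjusted p = 0.00415) from -0.29 to 0.46 in normal colon to 0.90 to 1.5 in tumours. Fst, follistatin, which binds activin, rose by 1.72 ± 0.48 (adjusted p = 0.0354), a call lost without rat 1, 5, 7 or 9 (0.127, 0.0881, 0.115 and 0.0913) and with rats 1 and 5 as 1 normal sample (0.0929). Of 14 Eph receptors and ephrins, 3 rose and 3 fell. The ligand Efna4 rose 2.27-fold (adjusted p = 5.7e-05), from -0.32 to 0.07 in normal colon to 0.81 to 1.4 in tumours. Of 15 Notch genes only the ligand Dll1 passed: it fell by 0.86 (SE 0.22; adjusted p = 0.0184), and without rat 5, 6 or 9 its adjusted p was 0.0856, 0.0624 or 0.0533. Median centring ended the calls of Id3, Fst and Dll1 (adjusted p = 0.0802, 0.0969 and 0.214).

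Few cell cycle genes passed without a rat block. Of 35, 2 rose and none fell, against 3.74% and 3.85% of all features. The 2 were Ccnd1 and Ccnd2, both D-type cyclins of the G1 phase. With rat as a block 8 rose, against 1659 of 26454 features. The list's median was 0.136, and 0.693 under median centring, which is 0.443 above the median of all features. Ccnd2 was at 0.96, 1.0, 1.66, 0.61 and 1.21 in normal colon and at 2.16, 2.36, 2.49, 2.73 and 2.17 in tumours (1.29 ± 0.20; adjusted p = 0.000483, and 0.0928 under median centring). The proliferation marker Mki67 was at 0.72, 0.88, 1.52, 2.30 and 1.62 in normal colon and at 0.44, 0.14, 1.15, 2.55 and 1.25 in tumours. It was lower in tumour in 4 rats and higher in rat 7, and did not pass (-0.30 ± 0.44; adjusted p = 0.769). Pcna, a DNA polymerase clamp, differed by 0.69 ± 0.25 (adjusted p = 0.108). Of 24 ribosome biogenesis genes, 6 rose and none fell, with 11 rises under the rat block; all 24 had higher fitted means in tumour, with differences from 0.175 to 1.34. The normal and tumour values were free of overlap for 1 of the 24, and the list's mean in normal colon of rats 6 and 7 (1.08 and 0.828) reached the range of the tumours (0.812 to 1.42).

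**Figure D2:**
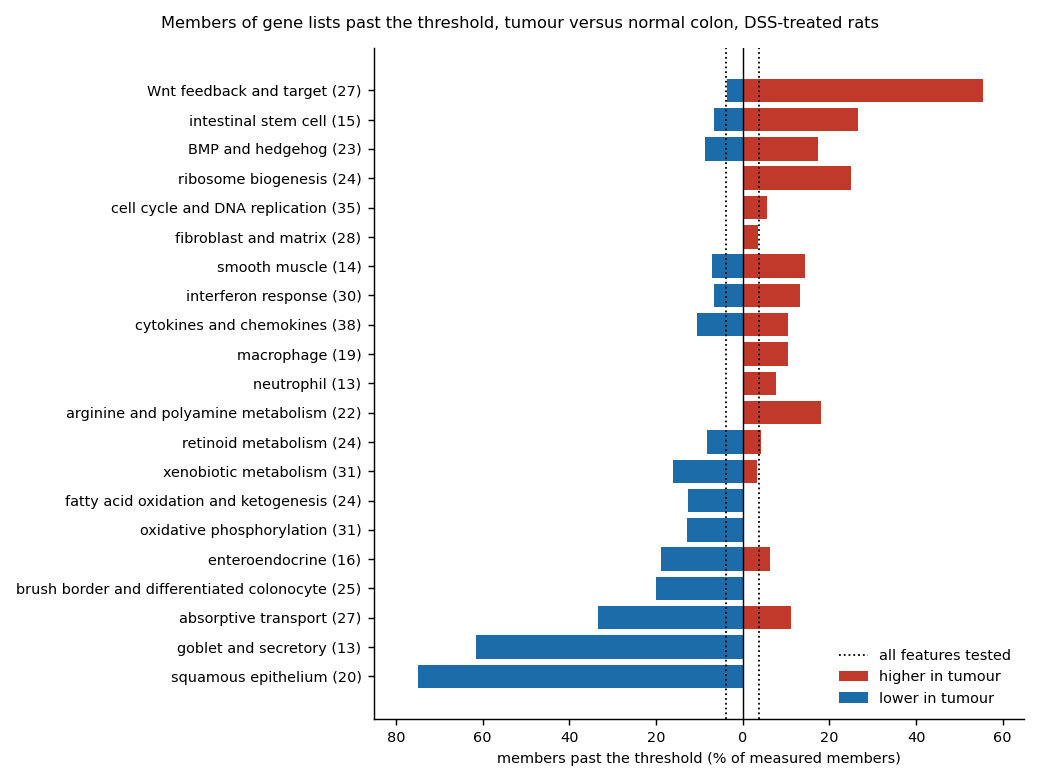
Share of the measured members of 21 gene lists (list sizes in brackets) that passed the threshold in tumour against normal colon of DSS rats, higher to the right and lower to the left, as percent of members; dotted lines mark all features tested, 3.74% higher and 3.85% lower. The Wnt list extends furthest to the right (15 of 27) and the squamous list furthest to the left (15 of 20).

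Genes of stratified squamous epithelium were high in normal colon and near the pool in tumours. Of 20 measured, 15 fell and none rose, with a median difference of -2.68, and 17 were well above background on all 6 normal arrays against 7 on all 6 tumour arrays. The list's mean level was 2.58, 2.89, 2.44, 2.45 and 3.89 in normal colon and 0.358, 0.284, 0.552, 0.337 and 0.189 in tumours. Rat 9 stood highest in normal colon; without it 15 of 20 still fell, with a median of -2.33. Where along the distal colon the normal tissue was cut is not given in the sources used here, and its part in these values was not tested.

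Tp63, the master regulator of squamous basal cells, was at 4.49, 4.68, 2.85, 3.36 and 7.18 in normal colon and within -0.04 to 0.14 in tumours, where no array was well above background. It was at least 20.1-fold lower in tumours (adjusted p = 2.7e-05), a bound set on Cy3 signals. A second, dimmer Tp63 probe differed by only -0.66. Krt5, the keratin of basal cells, was at 2.37, 2.60, 2.23, 2.69 and 3.79 against 0.05 to 0.13 in tumours, 6.29-fold lower. A second, dimmer Krt5 probe differed by -0.85. Krt10, the keratin of the layers above, was at 3.30, 3.63, 3.04, 3.50 and 4.55 against -0.04 to 0.11, 11.9-fold lower. Tumour signals of Krt5 were well above background on 2 of 6 arrays and those of Krt10 on 1 of 6, so these folds rest on tumour values near background. Genes of the basal and of the upper layers were thus both lower.

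The cornified and barrier genes behaved the same way. Krtdap, a peptide of differentiating keratinocytes, was at 4.53, 4.67, 4.20, 4.95 and 6.38 in normal colon and -0.28 to -0.08 in tumours, a difference of -5.15 ± 0.61 (adjusted p = 3.89e-05); a second probe fell less (-0.65). Stfa3, a stefin-type inhibitor of cysteine proteases, ran at 4.53 to 7.61 in normal colon and at -0.28 to 0.05 in tumours, but a dimmer probe differed by -0.73. Csta, another such inhibitor, ran at 4.84 to 7.73 against 0.18 to 1.17, and its second probe differed by -3.84. Slurp1, a secreted Ly6 protein of skin, ran at 3.60 to 5.68 against -0.58 to -0.15, and Ly6d, a Ly6 protein of keratinocytes, at 3.1 to 4.33 against -0.71 to -0.22. Adjusted p for these 5 genes ran from 2.29e-07 to 0.000382. Tumour signals of Krtdap and Ly6d were well above background on 1 of 6 arrays and those of Stfa3 on 3.

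The proteases and inhibitors of the shedding layer, Klk12, Klk13 and Spink5, fell 13.8-fold, 15.7-fold and 18.1-fold. Calml3, an epidermal calmodulin-like protein, fell 7.25-fold. The gap-junction proteins Gjb2 and Gjb6 fell 21.5-fold and 14.1-fold: Gjb2 was at 3.65, 3.91, 3.07, 1.44 and 4.88 in normal colon, lowest in rat 7, and at -1.38 to -0.64 in tumours. Wfdc18, a whey-acidic protease inhibitor, fell 18-fold, Serpinb2, a serpin of wounded epithelium, 8.29-fold, and the tight-junction protein Cldn1 2.77-fold. Adjusted p for these 9 genes ran from 6.49e-06 to 0.00178. In tumours Klk12, Klk13, Calml3 and Gjb6 were well above background on 1 of 6 arrays, Spink5 on 2 and Cldn1 on 3. Second probes of Spink5 and Cldn1 differed by -5.45 and -2.07. Sox2, a factor of foregut and squamous epithelium, was at 2.14, 1.91, 0.94, 0.22 and 2.63 in normal colon and -0.48 to -0.04 in tumours (adjusted p = 0.00132). Sprr1a, a cornified envelope protein, was lower in 5 of 5 tumours (-1.75 ± 0.59) without passing (adjusted p = 0.0829; 0.0358 with rat as a block), and stayed at 1.87 to 3.72 in tumours.

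Of 4 urothelial genes measured, 2 fell. Upk1b, a uroplakin of the urothelial plaque, was at 3.51, 3.62, 2.71, 0.12 and 4.67 in normal colon and at -2.80, -3.96, -4.21, -3.50 and -3.47 in tumours. Rat 7 was far lower than the other normal samples, and still above every tumour. The difference of -6.52 ± 0.67 was the largest among named genes (adjusted p = 9.04e-06), and a second probe fell by 2.09. The other was Krt20, a keratin shared by urothelium and surface colonocytes, which fell 6.08-fold (adjusted p = 0.00297, and 0.0838 under median centring), from -0.18 to 0.63 in normal colon to -3.16 to -1.33 in tumours.

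The AP-1 letters TGACTCA (both strands) were in 3 of 14 squamous list promoters (21.4%: Krt4, Sprr1a and Krtdap) and in 4 of 19 Wnt list promoters (21.1%). They were in 4.53% of all promoters and in 3.79% of the 11133 of genes tested. The share was 7.78% for the 553 promoters of genes lower in tumours. It was 11% for the 146 of those whose difference from untreated rats also passed. Windows of Krtdap (chr1:95165761-95165807, plus strand), Klk12 (chr1:103359077-103359114, plus) and Sprr1a (chr2:180752716-180752792, minus) are shown with the match in capitals, in GRCr8 from RefSeq. The matches read on the opposite strand and lie 81 bases before the start in Krtdap, 239 in Klk12 and 147 and 117 in Sprr1a.
Krtdap: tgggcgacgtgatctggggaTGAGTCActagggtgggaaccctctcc
Klk12: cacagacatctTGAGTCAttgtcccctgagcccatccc
Sprr1a: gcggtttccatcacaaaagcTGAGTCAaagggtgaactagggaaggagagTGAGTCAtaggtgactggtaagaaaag

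Of 13 goblet and secretory genes, 8 fell and none rose (median -1.24; mean level -0.619 to -0.143 in normal colon and -1.89 to -1.31 in tumours). Tff3, the trefoil peptide secreted with mucus, was at -0.69, -0.85, -1.97, -0.73 and -1.10 in normal colon and at -2.82, -3.37, -4.21, -3.53 and -3.35 in tumours. It fell 5.23-fold (adjusted p = 5.78e-05), and rat 6 was lowest in both tissues. Clca1, a secreted protein of mucus, fell 9.79-fold (adjusted p = 0.00121), Zg16, a lectin of the mucus layer, 4.53-fold (adjusted p = 0.00205) and Spdef, a transcription factor of goblet cell maturation, 3.39-fold (adjusted p = 0.00255). Under median centring Zg16 (-1.41) and Spdef (-0.98) did not pass (adjusted p = 0.147 and 0.287). Muc2, the main gel-forming mucin, was lower in 5 of 5 tumours (-0.64 ± 0.32) but did not pass (adjusted p = 0.288; 0.0415 with rat as a block). Its probe was well above background on 1 of 6 tumour arrays.

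Of 27 genes of absorptive transport, 9 fell and 3 rose, and 15 fell with rat as a block. The mean level was -0.908 to -0.616 in normal colon and -1.75 to -1.31 in tumours. Slc26a3, the apical chloride-bicarbonate exchanger, was at -0.19, -0.03, -1.0, -1.12 and -2.05 in normal colon and at -2.98, -4.43, -5.13, -5.50 and -5.49 in tumours, 14.2-fold lower (adjusted p = 0.00286). Rats 1 and 5 were the highest in both tissues. Atp12a, the colonic proton-potassium pump, was at 0.68, 0.78, 0.57, -0.31 and 1.19 against -1.86, -2.09, -3.18, -2.87 and -2.84, 8.88-fold lower (adjusted p = 0.000428). Median centring ended both calls (adjusted p = 0.133 for Slc26a3 and 0.0816 for Atp12a).

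Car4, a membrane carbonic anhydrase, fell 5.32-fold (adjusted p = 0.00115), and normal colon of rat 9 (-1.77) stood below the other 4 (-0.65 to -0.35). Aqp8, a water channel, fell 4.45-fold (adjusted p = 0.000344), and Slc16a1, a monocarboxylate carrier for butyrate, 2.27-fold (adjusted p = 0.00131). Under median centring Car4 (-1.63), Aqp8 (-1.43) and Slc16a1 (-0.44) did not pass (adjusted p = 0.198, 0.0866 and 0.589). Car1, a cytosolic carbonic anhydrase, was at -4.04 to -3.26 in normal colon and -4.44 to -4.18 in tumours; it did not pass (-0.59 ± 0.18; adjusted p = 0.0511) until rat was a block (0.00432). Both tissues were thus far below the wild-type pool for Car1.

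Brush border and differentiated colonocyte genes had 5 of 25 lower and none higher (10 lower with rat as a block); their median was -0.286, and 0.236 under median centring, a change of sign but -0.014 relative to all features. Fabp2, an intestinal fatty acid binding protein, fell by 1.89 (SE 0.23; adjusted p = 4.82e-05), from -3.92 to -3.21 in normal colon to -5.72 to -4.97 in tumours. Vil1, the microvillus protein villin, differed by 0.54 ± 0.28 (adjusted p = 0.304). Of 28 intestinal transcription factors and nuclear receptors, 4 fell and none rose, with 8 falls and 2 rises under the rat block. Klf4, a factor of post-mitotic epithelium, was at -0.47 to 0.49 in normal colon and -1.75 to -1.0 in tumours (adjusted p = 0.00168). Hnf4a, a master factor of enterocytes, differed by -0.06 ± 0.12, and Cdx2, the hindgut homeobox factor, was lower in 5 of 5 tumours (-0.50 ± 0.21; adjusted p = 0.188, and 0.0158 with rat as a block). Fabp2 (-1.11) and Klf4 (-0.77) did not pass under median centring (adjusted p = 0.209 and 0.284).

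Among 16 enteroendocrine genes 3 hormones fell and 1 gene rose. Cck, cholecystokinin, was at 0.50, 0.62, 0.46, 0.51 and -0.40 in normal colon and at -0.78, -1.58, -1.36, -1.67 and -1.87 in tumours, 3.46-fold lower (adjusted p = 0.000128). Pyy, peptide YY, fell 3.34-fold (adjusted p = 0.00147). Gcg, the precursor of glucagon-like peptides, fell 2.16-fold (adjusted p = 0.0158, and 0.0523 or 0.0649 without rat 1 or 5). Chga, chromogranin A, was lower in 5 of 5 rats without passing (adjusted p = 0.0624; 0.0365 with the block). The gene that rose was Tph1, which starts serotonin synthesis (0.98 ± 0.28; adjusted p = 0.0429). That call was lost without rat 1, 5, 6 or 9 (0.139, 0.089, 0.0765 and 0.245) and with rats 1 and 5 as 1 sample (0.0846), and the rat 5 tumour had no value. Under median centring none of the 4 calls held: Cck was at -1.08, Pyy at -0.95 and Gcg at -0.43 (adjusted p = 0.22, 0.285 and 0.409), and Tph1 had an adjusted p of 0.16.

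Metabolic genes moved in small steps, and their direction depended on the scaling. Of 31 oxidative phosphorylation genes 4 fell and none rose (12 with rat as a block); the median was -0.302, and 0.406 under median centring, which is 0.156 above the median of all features. Cox5b, a cytochrome oxidase subunit, differed by -0.70 ± 0.11 (adjusted p = 0.000517) and Sdhd, a succinate dehydrogenase subunit, by -0.57 ± 0.12 (adjusted p = 0.00633), and both turned slightly positive under median centring (0.03 and 0.15). Fatty acid oxidation had 3 of 24 lower (median -0.229, and 0.485 with median centring) and glycolysis 1 higher and 1 lower of 24 (median -0.222, and 0.448).

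Arginine and polyamine metabolism had 4 of 22 higher and none lower. Ass1, which makes argininosuccinate, was at -1.37, -1.51, -0.64, -1.41 and -2.13 in normal colon and at 1.10, 1.0, 1.89, -0.13 and 0.58 in tumours, 4.91-fold higher (adjusted p = 0.00178). Oat, ornithine aminotransferase, was at -1.58, -1.46, -1.34, -1.74 and -1.63 in normal colon and at 0.29, -0.11, -0.25, 0.23 and 0.28 in tumours, 3.12-fold higher (adjusted p = 1.69e-05). The normal samples and the tumours each lay close together. Arg1, arginase, was higher in 5 of 5 tumours (2.78-fold; adjusted p = 0.0369), a call lost without any 1 of the 5 rats (0.0575 to 0.167) and with rats 1 and 5 as 1 sample (0.111). Odc1, ornithine decarboxylase, the rate-limiting enzyme of polyamine synthesis, differed by 0.05 ± 0.21 (adjusted p = 0.932).

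Of 31 xenobiotic genes 5 fell and 1 rose. Gstm1, a glutathione transferase, was at 1.79, 1.78, 1.13, 0.07 and 1.38 in normal colon and at -1.05, -1.33, -1.39, -1.74 and -1.27 in tumours, 6-fold lower (adjusted p = 1.05e-05). Rat 7 was lowest in both tissues. Aldh3a1, an aldehyde dehydrogenase of cornea and other squamous epithelia, fell 3.92-fold (adjusted p = 6.34e-05), and the cytochrome Cyp2j4 2.77-fold (adjusted p = 0.00529). Of 24 retinoid genes 2 fell and 1 rose, and the falls were those of the binding proteins Crabp2 (-2.58 ± 0.49; adjusted p = 0.00267) and Rbp2 (-2.24 ± 0.43; adjusted p = 0.00312). Of 19 prostaglandin genes 4 fell and none rose (3 lower with rat as a block), led by Hpgd, which breaks prostaglandins down (3.84-fold lower; adjusted p = 0.00482). Ptgs2, the inducible cyclooxygenase, was at 0.98, 0.86, 0.86, 0.43 and -0.13 in normal colon and at 0.76, 1.5, 1.86, 1.47 and 0.95 in tumours. It was higher in 4 of 5 tumours and lower in rat 1, and did not pass (adjusted p = 0.0936). Under median centring Gstm1, Aldh3a1, Cyp2j4 (-0.70), Crabp2 and Hpgd (-1.16) did not pass (adjusted p = 0.0547, 0.0746, 0.366, 0.0594 and 0.254).

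Among 20 EGF and IGF ligands and receptors 1 fell, Igfbp3, which binds insulin-like growth factors. It was at 2.29, 2.35, 1.93, -0.59 and 1.79 in normal colon and at -1.43, -1.24, -1.11, 0.05 and -0.77 in tumours, 5.48-fold lower (adjusted p = 0.00509, and 0.121 under median centring). Rat 7 was the exception, with tumour above normal colon.

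Cytokines and chemokines split evenly, with 4 of 38 higher and 4 lower. The CXCR3 ligands rose: Cxcl11 was at -1.01, -1.33, -1.36, -1.33 and -1.77 in normal colon and at 1.37, 1.61, 1.33, 0.36 and 0.40 in tumours, 5.18-fold higher (adjusted p = 0.000234). Cxcl10 was at -0.08, -0.06, -0.58, -0.37 and -2.36 against 1.57, 1.67, 3.11, 0.25 and 1.59, with rat 9 lowest in normal colon and rat 7 lowest in tumour. It rose 5.02-fold (adjusted p = 0.0121), and without rat 6 or 9 its adjusted p was 0.0544 or 0.0634, and 0.0713 under median centring.

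Cxcl14, an epithelial chemokine, rose 2.99-fold (adjusted p = 0.00135), while a dim second probe differed by -0.16. Cxcl13, the chemokine that draws B cells to lymphoid follicles, was at 0.35, 0.63, -0.57, -0.01 and -0.86 in normal colon and at -2.19, -2.81, -3.74, -3.42 and -3.22 in tumours, 7.89-fold lower (adjusted p = 2.7e-05). Il18, an epithelial cytokine, fell 3.31-fold (adjusted p = 0.000391), while its second probe differed by -0.64 without passing and median centring gave the first -0.97 (adjusted p = 0.192). Il1b, a cytokine of activated myeloid cells, was at 1.71 to 2.41 in normal colon and 1.38 to 2.13 in tumours, an overlap (adjusted p = 0.6).

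Interferon-responsive genes were also mixed, with 4 of 30 higher and 2 lower. Gbp2, an interferon-induced GTPase, was at -0.24, -0.11, 1.17, 0.35 and -0.05 in normal colon and at 2.50, 2.37, 2.95, 2.82 and 3.03 in tumours, 5.7-fold higher (adjusted p = 0.00011). Psmb8, an immunoproteasome subunit, rose 1.8-fold (adjusted p = 0.00523, and 0.0796 under median centring). Ido1, which breaks down tryptophan, went the other way: 1.93, 1.98, 1.10, 2.48 and 2.40 in normal colon against -0.11, -0.71, -0.43, -0.43 and -0.30 in tumours, 5.19-fold lower (adjusted p = 7.86e-06).

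Leukocyte markers changed little. The macrophage list had 2 of 19 higher, Csf1r (0.45 ± 0.13; adjusted p = 0.0335) and Spp1 (0.72 ± 0.20; adjusted p = 0.0362); leaving out single rats took Csf1r to 0.13 and Spp1 to 0.195 at most, and rats 1 and 5 as 1 sample gave 0.0842 and 0.0838. The single neutrophil gene of 13 that passed was the granule peptide Camp (1.13 ± 0.31; adjusted p = 0.0323, at most 0.137 without 1 rat and 0.0791 with rats 1 and 5 as 1). S100a8 and S100a9, the calprotectin subunits of neutrophils and of inflamed or squamous epithelium, were high in both tissues, at 2.69 to 4.15 in normal colon and 2.21 to 3.68 in tumours, and neither passed. Gzmb, a granzyme, fell by 1.67 (SE 0.37; adjusted p = 0.00909, 0.0501 without rat 6 and 0.187 under median centring), although its other probes differed by -0.79 and -0.09. No MHC class II gene of 11 passed.

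Epithelial defence genes fell more often than they rose, with 4 of 17 lower and 2 higher. Defb1, a beta-defensin, was at 3.1, 3.34, 2.33, 3.0 and 5.01 in normal colon and at -0.19 to 0.00 in tumours, 11.1-fold lower (adjusted p = 6.52e-06). Defb4, another beta-defensin, was at 1.43 to 2.89 against -0.07 to 0.10, 4.07-fold lower (adjusted p = 1.78e-05). Both were well above background on 1 of 6 tumour arrays, and both were highest in rat 9 normal colon, as the squamous list was (3.89). Their relation to that list was not tested.

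The regenerative and fetal-like epithelium list, genes raised in repairing colon, was raised in both tissues, at 0.687 to 1.18 in normal colon and 1.11 to 1.35 in tumours. Of 26 members 2 rose and 3 fell. The rises were those of Tm4sf1 and Cd44, and Anxa1, annexin A1 (-0.97 ± 0.20; adjusted p = 0.00574), and Ly6al, a Ly6 family protein (-1.72 ± 0.23; adjusted p = 0.000143), were among the falls. Anxa1 was saturated on 5 normal and 2 tumour arrays and Ly6al on 4 normal arrays, which limits how far their size can be read. Under median centring Anxa1 was at -0.24 and Ly6al at -0.96, and neither passed (adjusted p = 0.754 and 0.147).

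Stromal genes differed between the rats of the 2 lots, and the part of the lot itself was not tested. Of 28 fibroblast and matrix genes only Col4a2, a basement membrane collagen, rose (0.53 ± 0.10; adjusted p = 0.002), and 6 rose with rat as a block. The list's mean was -0.863, -0.929 and -0.649 in tumours of lot 1 and -0.196 and -0.198 in lot 2, against -1.45 to -0.82 in normal colon. In untreated tumours it was -0.581, -1.08 and -0.725 in lot 1 and -0.62 and -0.198 in lot 2. The list's median difference in DSS rats was 0.107 within lot 1 and 1.07 within lot 2. Col1a1, the main fibrillar collagen, shows it: -2.73, -2.93, -2.56, -2.71 and -2.92 in normal colon against -2.93, -2.42, -1.74, -0.40 and -0.62 in tumours (adjusted p = 0.14; 0.0385 with the block), with its other probes at -0.54 and 0.47.

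Of 14 smooth muscle genes 2 rose and 1 fell. Tpm1, a tropomyosin, rose 2.17-fold (adjusted p = 5.01e-05, and 0.0877 under median centring), and its other probes differed by 0.27, 0.66 and 1.29. Myl9, a myosin light chain, rose 2.36-fold (adjusted p = 0.00867; 0.0597 without rat 5) but stayed far below the pool, at -3.75 to -3.14 in tumours. Tpm2 differed by -1.55 ± 0.43 (adjusted p = 0.0339), a call that ended without rat 1, 5, 6 or 9 (0.119, 0.132, 0.0901 and 0.175) and with rats 1 and 5 as 1 sample (0.0942), and under median centring (0.361); normal colon of rat 7 (-3.27) lay below every tumour. Uchl1, a ubiquitin hydrolase of neurons, was the 1 of 20 enteric neuron and glia genes that rose (1.46 ± 0.41; adjusted p = 0.0351), and lost that call without any single rat (0.0593 to 0.143) and with rats 1 and 5 as 1 sample (0.0789). No gene of the endothelial list of 15 or the red cell list of 8 passed.

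**Figure D3:**
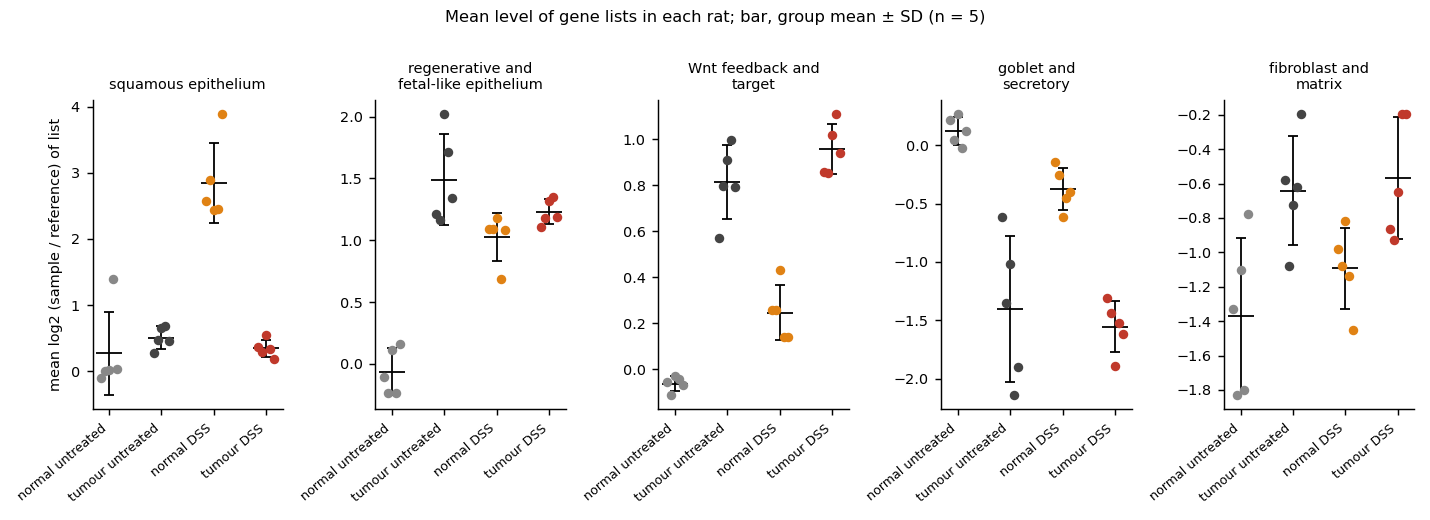
Mean log2 of sample over reference pool of 5 gene lists in each rat (points), by group, with group mean and SD (bars, n = 5 rats). Normal colon of DSS rats stands apart for the squamous list (2.85 ± 0.609 against 0.268 ± 0.63 in untreated normal colon), and the 2 tumour groups lie close together for the Wnt list (0.957 ± 0.109 and 0.814 ± 0.16).

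The same contrast in untreated rats, which shares no sample with the DSS rats, gave 4763 features past the threshold (18%), a count that fell to 2624 without rat 8. Of the 989 features higher in DSS tumours, 534 were also called higher in untreated rats, 9 lower and 446 not called. Of the 1018 lower features, 447 were also called lower, 42 higher and 529 not called. The difference between the 2 contrasts passed for 662 features (2.5%), 220 in the positive and 442 in the negative direction. It passed for 79 of the features higher in DSS tumours and for 234 of the lower ones, and 186 of these 234 were not called in untreated rats. Without rat 1, 5, 9, 3, 4 or 8 the 662 became 318, 370, 380, 416, 336 or 364. Of 46 named genes with this difference, 45 kept it with rat as a block, 34 under median centring and 23 with scaling between arrays.

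Several of the changes described above were of like size in both kinds of rat. Armh4 rose by 3.88 in DSS and 4.29 in untreated rats, Axin2 by 1.01 and 1.0, Clca1 differed by -3.29 and -3.31 and Aqp8 by -2.15 and -2.13. The difference between treatments was -0.41 for Armh4 (adjusted p = 0.811), 0.01 for Axin2 (0.993), 0.01 for Clca1 (0.996) and -0.02 for Aqp8 (0.99). A p that misses the threshold does not show that the effects are equal. The Wnt list had 13 of 27 higher in untreated rats, and 2 members, Mmp7 and Cd44, differed between the treatments.

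Mmp7 stood at 3.40 ± 0.70 (SD, n = 5) in DSS normal colon and at -0.29 ± 0.25 in untreated normal colon, while tumours were at 5.34 ± 0.53 and 5.26 ± 0.62. The contrast was 1.95 in DSS and 5.56 in untreated rats (difference adjusted p = 0.000449). Cd44 followed the same order: 0.77 ± 0.38 and -2.12 ± 0.56 in normal colon of DSS and untreated rats, 2.32 ± 0.24 and 2.53 ± 0.43 in tumours, with contrasts of 1.56 and 4.65 (difference adjusted p = 0.000236, and 0.151 under median centring). In both genes it was the normal colon of the DSS rats that stood apart from that of untreated rats, and the tumours were close.

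The difference passed for 14 of 20 squamous genes, all in the negative direction, against 442 of all 26454 features in that direction. The list's median contrast in untreated rats was -0.0647, with 3 of the 20 called higher in tumours and none lower. It was -0.11 for Krt5, -0.40 for Krt10 and -0.08 for Tp63, none of which passed. In untreated normal colon the list's mean was -0.0979, -0.00288, 0.0141, 1.39 and 0.0342 in rats 2, 3, 4, 8 and 10, so that 1 untreated rat of 5 (rat 8) also stood above its group. Sprr1a went opposite ways, -1.75 in DSS and 2.85 in untreated rats (difference adjusted p = 0.00532).

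Among regenerative genes 17 of 26 rose in untreated rats against 2 in DSS rats, and the difference passed for 9, all negative. The list's mean was 1.03 ± 0.193 in DSS and -0.0622 ± 0.189 in untreated normal colon, and 1.23 ± 0.101 and 1.49 ± 0.367 in tumours. Among cytokines and chemokines 17 of 38 rose in untreated rats and the difference passed for 9, again all negative: Il1b differed by -0.33 in DSS and rose by 2.14 in untreated rats (difference adjusted p = 0.00331). Cxcl2, a neutrophil chemokine, was at 5.83, 6.49, 5.05, 4.34 and 6.46 in DSS normal colon and at 3.42, 5.18, 4.21, 2.78 and 5.38 in DSS tumours. Its contrast was -1.44 in DSS rats, where it did not pass (adjusted p = 0.3), and 4.08 in untreated rats.

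S100a8 and S100a9 had contrasts of -0.75 and 0.22 in DSS rats and of 3.62 and 3.90 in untreated rats (difference adjusted p = 0.000416 and 0.0011). Arg1 rose by 1.48 and by 4.55 (difference adjusted p = 0.00785). Of 13 neutrophil genes, S100a8 and S100a9 among them, 9 rose in untreated tumours and 1 in DSS tumours. The difference between treatments passed for 2 of the 13, and these were S100a8 and S100a9 themselves. Of 19 macrophage genes 13 rose in untreated and 2 in DSS tumours, and the difference passed for 2. Over all 26454 features 18% passed in untreated rats (2270 features higher), 7.59% in DSS rats (989 higher) and 2.5% for the difference. The part of these cell types in the differences was not tested.

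The largest differences in the negative direction were those of Clca4l, Upk1b, Csta, Cxcl2, Fabp5 and Alpl. Clca4l, a calcium-activated chloride channel regulator, was at 5.26, 5.93, 4.84, 4.51 and 8.30 in DSS normal colon and at 1.15, 1.73, 2.35, 2.10 and 4.53 in DSS tumours. It fell 10.5-fold in DSS rats (adjusted p = 0.0162, and 0.0702 or 0.0856 without rat 1 or 5) and rose by 3.88 in untreated rats, a difference of -7.28 (adjusted p = 0.00212). Fabp5, an epidermal fatty acid binding protein, was at 2.13, 2.16, 2.16, 0.86 and 3.20 against 0.61, 0.28, 1.36, 1.44 and 1.33 in DSS rats, with normal colon above tumour in all but rat 7. Its contrast was -1.10 (adjusted p = 0.144) against 4.14 in untreated rats. Alpl, tissue-nonspecific alkaline phosphatase, fell by 2.54 (SE 0.56; adjusted p = 0.00752) in DSS rats and rose by 2.68 in untreated rats. For all 3 genes the DSS normal colon was the higher tissue and the untreated normal colon the lower one.

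In the positive direction the largest were Cmahp, Ces1e, Aldh1a1, Sstr1, Speg and Anpep. Cmahp, related to sialic acid hydroxylation, was at -4.22, -4.59, -4.45, -5.11 and -5.42 in DSS normal colon and at -4.84, -5.50, -5.36, -5.61 and -5.43 in DSS tumours, so that both tissues lay far below the pool. Its contrast was -0.59 in DSS rats (adjusted p = 0.323) and -4.95 in untreated rats. Aldh1a1, a retinaldehyde dehydrogenase, had contrasts of -0.93 and -3.34 (difference adjusted p = 0.0457, and 0.0503 with rat as a block), Ces1e, a carboxylesterase, 0.40 and -2.48, and Anpep, the brush border aminopeptidase N, 0.54 and -1.66. Sstr1, a somatostatin receptor, had 0.62 and -1.60 and the muscle kinase Speg 0.69 and -1.52. A second, dimmer Ces1e probe rose by 0.50 in DSS rats (adjusted p = 0.0174, limma over all kept probes). On the probes that stood for the genes, none of the 6 passed in DSS rats, and all 6 fell in untreated rats. Oat was the reverse case, with a rise of 1.64 in DSS rats and 0.18 (adjusted p = 0.608) in untreated rats (difference adjusted p = 0.00398), although scaling between arrays turned that difference to -0.17.

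**Figure D4:**
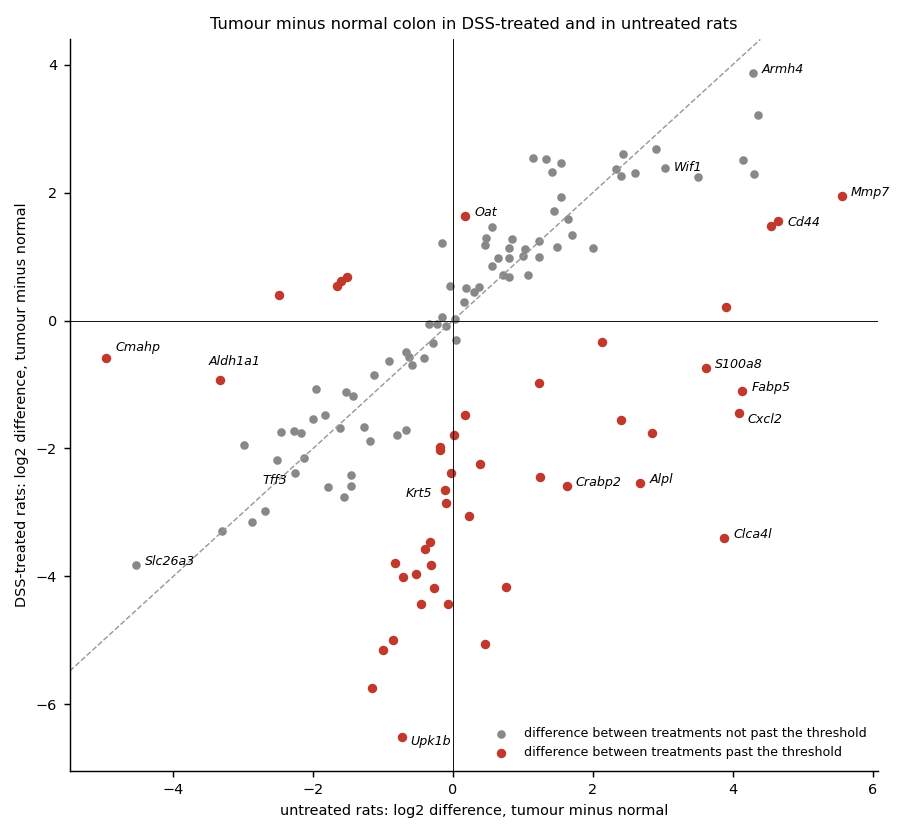
Log2 difference of tumour and normal colon for the named genes in untreated rats (horizontal) and DSS rats (vertical); red points are genes whose difference between the treatments passed the threshold, and the dashed line marks equal differences. Wif1, Tff3 and Slc26a3 lie near the line. The squamous gene Krt5 lies below 0 on the vertical axis and near 0 on the horizontal one. Clca4l (3.88, -3.40) and Mmp7 (5.56, 1.95) lie far from the line.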

How the data were processed

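RNA of 20 rat-and-tissue samples was measured on 24 2-colour Agilent rat arrays. Per the file headers, the deposited spot signals (unit intensity) were read with Feature Extraction, version 9.1.3.1. Here mean signals were corrected with normexp (offset 50), and log2 of Cy3 (sample) over Cy5 (pool) was normalized by loess within arrays using limma 3.58.1 (with statmod 1.5.0) under R 4.3.3. Spots of 1 probe, and then arrays of 1 rat and tissue, were averaged. Probes well above background in Cy3 on at least 5 of 24 arrays were kept, and the brightest probe stood for a gene, giving 26454 features, 13953 with a symbol. Of 41012 gene probes 21667 were given a current gene through RefSeq (GRCr8), 19345 kept the file's name, and 48 with conflicting names and 9 named like mitochondrial genes were left unnamed. 390 values (0.0737%) were missing and stayed missing in the fit. Differential expression was tested with a model of 4 group means over all 20 samples, moderated and two-sided, with Benjamini-Hochberg adjustment. The number of arrays limits the precision.

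The rat numbers pair the 2 tissues of 1 animal. Deviations of a rat's normal colon and tumour from the group means correlated across genes at 0.284 to 0.567, against -0.0239 to 0.497 between different rats of 1 lot. Normal colon and tumour of each DSS rat were also on the same slides, so these values cannot tell an animal from a slide. The pairing rests on the animal numbers, and a fit with rat as a block stands beside the one without. The members and lists were chosen with earlier results of these data known. Named genes are taken from the 15 largest rises and 15 largest falls past the threshold that moved 1 way in 5 of 5 rats, up to 4 members of each list with the smallest p and up to 2 well-known ones that did not pass, the 6 largest differences between treatments in each direction, and a short list of markers. Alternatives covered background correction, normalization, filters, blocks for rat, slide, lot and scan day, array weights, lots taken alone and samples left out; scaling between arrays and averaging the normal colon of rats 1 and 5 were chosen after seeing the data.
The text leaves out a small number of results that are not reported here.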

Additional observations from a re-analysis of the deposited data

Results flagged for a closer look

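Among the 346 groups of 5 rats examined (genes named in the text and list means, in normal colon and tumours of DSS rats), 17 had 1 sample far from the other 4; chance alone would mark about 1 group in 20. Rat 9 normal colon was that sample for Prss23 (-1.86), Cxcl10 (-2.36), Csta (7.73), Car4 (-1.77), Cck (-0.396), Crabp2 (4.86) and the mean of the red cell list (0.647). Its tumour was that sample for Apc (-0.586) and Efna4 (1.4), and this is the array with 86.9% of probes well above background. Rat 7 was far in normal colon for Sdhd (-0.318), Igfbp3 (-0.587) and the mean of the regenerative list (0.687), and in tumour for the endothelial list (0.139). Rat 6 was far in normal colon for Ces1e (-2.25) and the enteric neuron and glia list (-1.25), and in tumour for the Paneth and alpha defensin list (0.35) and the cholesterol synthesis list (0.496).

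The tumour-minus-normal difference of DSS rats less that of untreated rats passed the threshold (limma interaction contrast, adjusted over 26454 features) for 46 genes named in the text. In the positive direction these were Cmahp (4.36), Ces1e (2.88), Aldh1a1 (2.41; not past the threshold with rat as a block, adjusted p = 0.0503), Sstr1 (2.22), Speg (2.21), Anpep (2.20) and Oat (1.47). In the negative direction, genes of squamous or urothelial epithelium and its barrier were Upk1b (-5.78), Csta (-5.53), Wfdc18 (-4.93), Sprr1a (-4.60), Stfa3 (-4.58), Tp63 (-4.36), Krtdap (-4.15), Slurp1 (-4.13), Gjb2 (-3.98), Spink5 (-3.90), Gjb6 (-3.50), Klk13 (-3.44), Ly6d (-3.31), Serpinb2 (-3.28), Krt10 (-3.17), Klk12 (-2.95), Calml3 (-2.76), Krt5 (-2.55), Sox2 (-1.79), Aldh3a1 (-1.79) and Cldn1 (-1.64). Immune and defence genes were Cxcl2 (-5.52), S100a8 (-4.36), S100a9 (-3.69), Defb1 (-3.13), Arg1 (-3.07), Il1b (-2.47), Ido1 (-2.35) and Defb4 (-1.83). The others were Clca4l (-7.28), Fabp5 (-5.24), Alpl (-5.22), Crabp2 (-4.21), Tpm2 (-3.96), Igfbp3 (-3.69), Mmp7 (-3.61), Cd44 (-3.09), Rbp2 (-2.63) and Anxa1 (-2.20).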

How the results depend on the processing

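Of 97 named genes that passed in DSS rats, 81 also passed without each DSS rat in turn, 89 with the normal colon of rats 1 and 5 as 1 sample, 97 with rat as a fixed block and 58 with median centring in the same direction; all 97 had 1 sign in both lots. Cox5b and Sdhd turned to 0.027 and 0.155 under median centring, and the difference for Oat turned to -0.175 with scaling between arrays.

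The count of 2007 in DSS rats became 649 with median centring, 3290 with rat as a replicate block, 3397 with rat as a random replicate block, 3215 with lot and 3106 with scan day as a block, 110 within lot 2, 3563 with array weights and 621 with scaling between arrays, and ran from 1096 to 2079 when 1 rat was left out. The untreated count of 4763 became 904 with median centring, 2430 within lot 2 and 2370 with scaling, and 2624 to 5152 without 1 rat. The count of 662 for the difference between treatments became 187 with median centring, 1044 without background correction, 1233 from processed signals, 313 without the arrays of raised background, 1497 and 1665 with rat as a fixed or random replicate block, 1374 with lot, 1252 with scan day and 1031 with slide as a block, 420 within lot 1, 3 within lot 2 and 1299 with array weights, and 318 to 794 without 1 rat. The cause was not tested, except that the lots taken alone and the fits without a rat hold fewer samples. The rat block ended none of the 97 calls in DSS rats, and of 46 named differences between treatments it ended that of Aldh1a1 (adjusted p = 0.0503); median centring kept 34 of these 46, scaling between arrays 23 and leaving out the arrays of raised background 38. Aquantile leaves ratios as they are by construction. List medians moved by less than 1 SD over rats under 1284 list-and-setting pairs and by more under 79. Dim probes limit squamous genes in tumours.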

Other observations

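Several lists that fit no comparison above held few or no genes past the threshold in DSS rats (limma, adjusted over all features). No cholesterol synthesis gene of 21 and no circadian clock gene of 17 passed, with medians of -0.00295 and -0.184. In untreated rats, where 2270 of 26454 features rose and 2493 fell, 6 cholesterol genes rose and 7 clock genes fell. The difference between treatments passed for 1 cholesterol gene and for no clock gene, so the counts do not show that the treatments differed. Of 8 Paneth and alpha defensin genes 1 rose in DSS rats, against 5 that rose and 2 that fell in untreated rats, and the difference between treatments passed for 5. Of 12 tuft cell genes 1 rose and none with rat as a block. Mast cell and eosinophil genes (12), adipocyte genes (8) and skeletal muscle genes (13) each had 1 lower and none higher. Amino acid and nutrient transporters had 1 higher and 3 lower of 20, and immediate early and stress genes 1 higher and 1 lower of 29.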
